A study of Mus musculus with 40 samples.

Results

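The 37 genes described here are type I interferon stimulated genes, chosen by symbol as well-known targets of interferon alpha and beta, and they are 37 of the 45706 genes in the deposited tables. All 37 had a row in the tables. Their RNA was measured by sequencing in 40 libraries of sorted mouse cells that form 10 groups of 4. Neutrophils and monocytes were sorted from the blood of healthy mice, from the blood of tumor-bearing mice and from colon tumors, and epithelial and stromal cells were sorted from healthy colon and from colon tumors. The tumor-bearing mice were of the labelled C57Bl6/Sv129 background and carried Apc fl/fl alleles and Cdx2CreERT2, a tamoxifen-inducible Cre recombinase under the promoter of the intestinal gene Cdx2. They received 1 intraperitoneal injection of tamoxifen at 25 mg/kg at an age of 8 to 10 weeks, after which Apc loss in the intestinal epithelium gives rise to colon adenomas. The healthy mice were labelled C57Bl6, with no transgene and no agent, and their age was not given in the labels. Strain, alleles and tamoxifen therefore went with tumor status in every comparison of tumor-bearing with healthy mice, and their parts cannot be told apart. By their titles, 3 of the 4 libraries of healthy blood monocytes and 1 of the 4 of blood neutrophils of tumor-bearing mice were pools of 2 animals, and every other library came from 1.

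Type I interferons are secreted proteins that bind a receptor made of Ifnar1 and Ifnar2 on almost every cell. The receptor's kinases Jak1 and Tyk2 then phosphorylate transcription factors, Stat2 among them, which act with Irf9 and switch on a set of target genes. Many of the targets act against viruses, by sensing foreign RNA or DNA, by degrading RNA, by blocking translation or by trapping virus particles at membranes, and others tune the response itself. In neutrophils and monocytes many of these genes are transcribed at a low level without infection, through interferon made continuously in the body.

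The promoters of 7 members are shown because these genes carry the comparisons described here. Each is the 250 bases before the annotated start, 5′ to 3′ on the gene's strand, from RefSeq on GRCm38.p6, the mm10 build of the deposited tables. Capitals mark matches, on either strand, to GAAA followed by any 2 bases and GAAA again, a repeat typical of the sites bound by the interferon regulatory factors and by complexes that hold Irf9. Matches could overlap, as the 3 of Isg15 and the 2 of Oas1a did.
Ifit1: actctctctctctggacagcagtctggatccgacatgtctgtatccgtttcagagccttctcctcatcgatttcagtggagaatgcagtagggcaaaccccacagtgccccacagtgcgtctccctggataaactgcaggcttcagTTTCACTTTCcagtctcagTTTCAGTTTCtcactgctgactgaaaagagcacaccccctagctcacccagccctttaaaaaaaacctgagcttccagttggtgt
Ifit3: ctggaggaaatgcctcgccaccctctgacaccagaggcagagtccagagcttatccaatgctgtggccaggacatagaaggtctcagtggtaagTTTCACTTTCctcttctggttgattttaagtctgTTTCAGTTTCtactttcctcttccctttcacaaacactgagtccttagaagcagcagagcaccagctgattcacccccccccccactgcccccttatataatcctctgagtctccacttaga
Isg15: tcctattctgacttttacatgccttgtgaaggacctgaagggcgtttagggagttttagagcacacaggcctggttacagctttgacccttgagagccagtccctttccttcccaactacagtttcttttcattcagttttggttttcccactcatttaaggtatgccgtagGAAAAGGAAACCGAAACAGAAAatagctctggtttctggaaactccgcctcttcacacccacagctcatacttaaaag
Rsad2: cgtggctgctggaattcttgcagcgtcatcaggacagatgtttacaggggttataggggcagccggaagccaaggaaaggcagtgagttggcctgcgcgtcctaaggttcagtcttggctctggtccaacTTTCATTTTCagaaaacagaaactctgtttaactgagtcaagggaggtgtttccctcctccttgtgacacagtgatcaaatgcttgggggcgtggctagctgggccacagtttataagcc
Oas1a: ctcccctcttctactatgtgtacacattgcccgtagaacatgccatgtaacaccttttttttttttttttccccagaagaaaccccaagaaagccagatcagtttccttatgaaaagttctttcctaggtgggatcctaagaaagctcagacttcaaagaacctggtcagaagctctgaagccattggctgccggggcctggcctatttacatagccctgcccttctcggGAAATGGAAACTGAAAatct
Slfn5: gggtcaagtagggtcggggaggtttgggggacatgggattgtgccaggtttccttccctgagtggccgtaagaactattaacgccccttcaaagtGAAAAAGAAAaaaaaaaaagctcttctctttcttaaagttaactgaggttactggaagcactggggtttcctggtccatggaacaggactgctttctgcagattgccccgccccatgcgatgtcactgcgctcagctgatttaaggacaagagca
Ifitm3: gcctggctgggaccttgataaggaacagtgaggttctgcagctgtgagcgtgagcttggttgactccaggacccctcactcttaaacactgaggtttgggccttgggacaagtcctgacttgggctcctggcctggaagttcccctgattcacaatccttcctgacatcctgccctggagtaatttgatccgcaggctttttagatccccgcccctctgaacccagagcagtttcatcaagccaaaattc

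The windows lie at chr19:34640639-34640888 (Ifit1, plus strand), chr19:34583279-34583528 (Ifit3, plus), chr4:156200819-156201068 (Isg15, minus), chr12:26456453-26456702 (Rsad2, minus), chr5:120907526-120907775 (Oas1a, minus), chr11:82951852-82952101 (Slfn5, plus) and chr7:141010745-141010994 (Ifitm3, minus). Of the 37 members, 27 had a RefSeq window, in 30 windows, and 12 of the 30 (40%) held the repeat. Of all 32851 windows of this length, 2.977% held it. Ifitm3 had no match, which says only that these letters are absent from this window. The 7 oligoadenylate synthetase genes lie on chromosome 5, Oasl1 and Oasl2 apart from the other 5, and the 4 Ifit genes on chromosome 19. Ifit3 and Ifit3b, and Oas1a and Oas1g, are near-identical neighbours. Their counts ran in a nearly fixed ratio, Ifit3b to Ifit3 between 0.971 and 1.22 in 33 libraries and Oas1g to Oas1a between 0.972 and 1.14 in 40, so the counting could not separate the genes of a pair and each pair is best read as 1 measurement.

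Total counts ran from 10717873 to 38002939 per library, and mitochondrial genes took from 5.34% to 83.9% of them, highest in healthy epithelial replicate 4. Xist, transcribed in female cells, was above 1 RPKM in 4 of 4 healthy epithelial libraries. It was so in 0 of 4 tumor neutrophil and 0 of 4 tumor monocyte libraries, and thus was unevenly spread over the groups. Ddx3y, a gene on the Y chromosome, was detected in every library, at 0.500 to 11.8 RPKM. In healthy stromal replicate 4 Xist was at 41.1 and Ddx3y at 5.04, so Xist alone did not assign sex. Of 9 animals named in the titles of at least 2 single-animal libraries, 3 had libraries with and without Xist, so links between libraries by title are uncertain. Cells of other types were present in some sorts. Over 10 epithelial markers the summed RPKM was 199, 58.4, 37.4 and 12.4 in tumor neutrophils, against 0.652 to 1.57 in blood neutrophils of tumor-bearing mice and 161 to 408 in tumor epithelium. In tumor stromal replicates 1 and 2 it was 247 and 137, while 5 endothelial markers summed to 4.39 and 3.74 and 7 fibroblast markers were far below the healthy stromal range of 359 to 2017 in all 4 tumor libraries, between 6.03 and 24.1. The stromal label was thus not borne out by markers in these 2 libraries, and replicates 3 and 4 held neutrophil markers at 1564 and 529.

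Healthy blood cells held the members at the highest level of the 10 groups. The level of a library is given as the mean over the 37 genes of log2(RPKM + 1), after scaling RPKM between libraries by the trimmed mean of M-values (TMM). It was 4.53 ± 1.24 (SD, n = 4) in healthy blood neutrophils and 3.75 ± 0.42 in healthy blood monocytes. Healthy neutrophil replicates 3 and 4 were at 5.12 and 5.98. Replicates 1 and 2, at 3.66 and 3.35, lay within the healthy monocyte range of 3.17 to 4.12. Tumor neutrophils (2.59 ± 1.27), blood neutrophils (2.53 ± 0.22) and blood monocytes (2.35 ± 0.43) of tumor-bearing mice, healthy stromal cells (2.34 ± 0.67) and tumor monocytes (2.20 ± 0.59) followed, each within 1 SD of its neighbour in this order. Tumor stromal cells (1.42 ± 0.52), healthy epithelium (1.30 ± 0.51) and tumor epithelium (0.89 ± 0.13) stood lowest. Gene by gene, the highest group mean fell in healthy blood neutrophils for 30 of the 37 members and in healthy blood monocytes for the other 7. The lowest fell in tumor epithelium for 29, in healthy epithelium for 4 and in the blood neutrophils from tumor-bearing mice for 4.

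**Figure D1:**
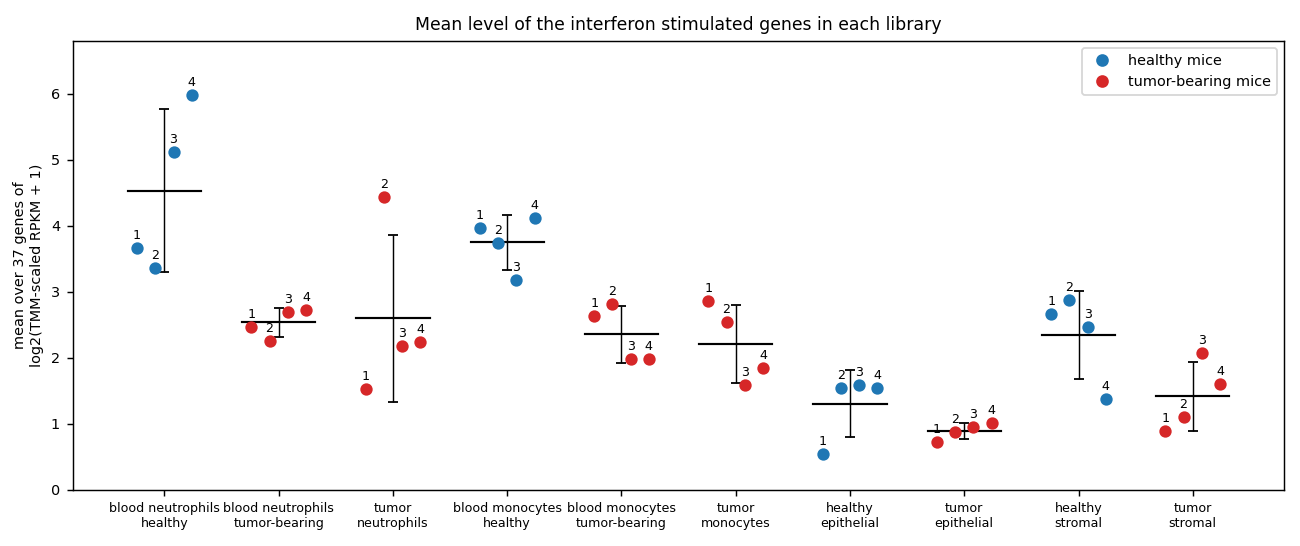
Mean level of the 37 genes in each library, as the mean of log2(TMM-scaled RPKM + 1), by group; blue points are libraries of healthy mice, red points those of tumor-bearing mice, the line is the group mean and the bar 1 SD over 4 libraries. Healthy blood neutrophils and monocytes stand highest, at 4.53 and 3.75, and tumor epithelium lowest, at 0.89. Healthy neutrophil replicates 1 and 2 lie within the range of healthy monocytes.

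**Figure D2:**
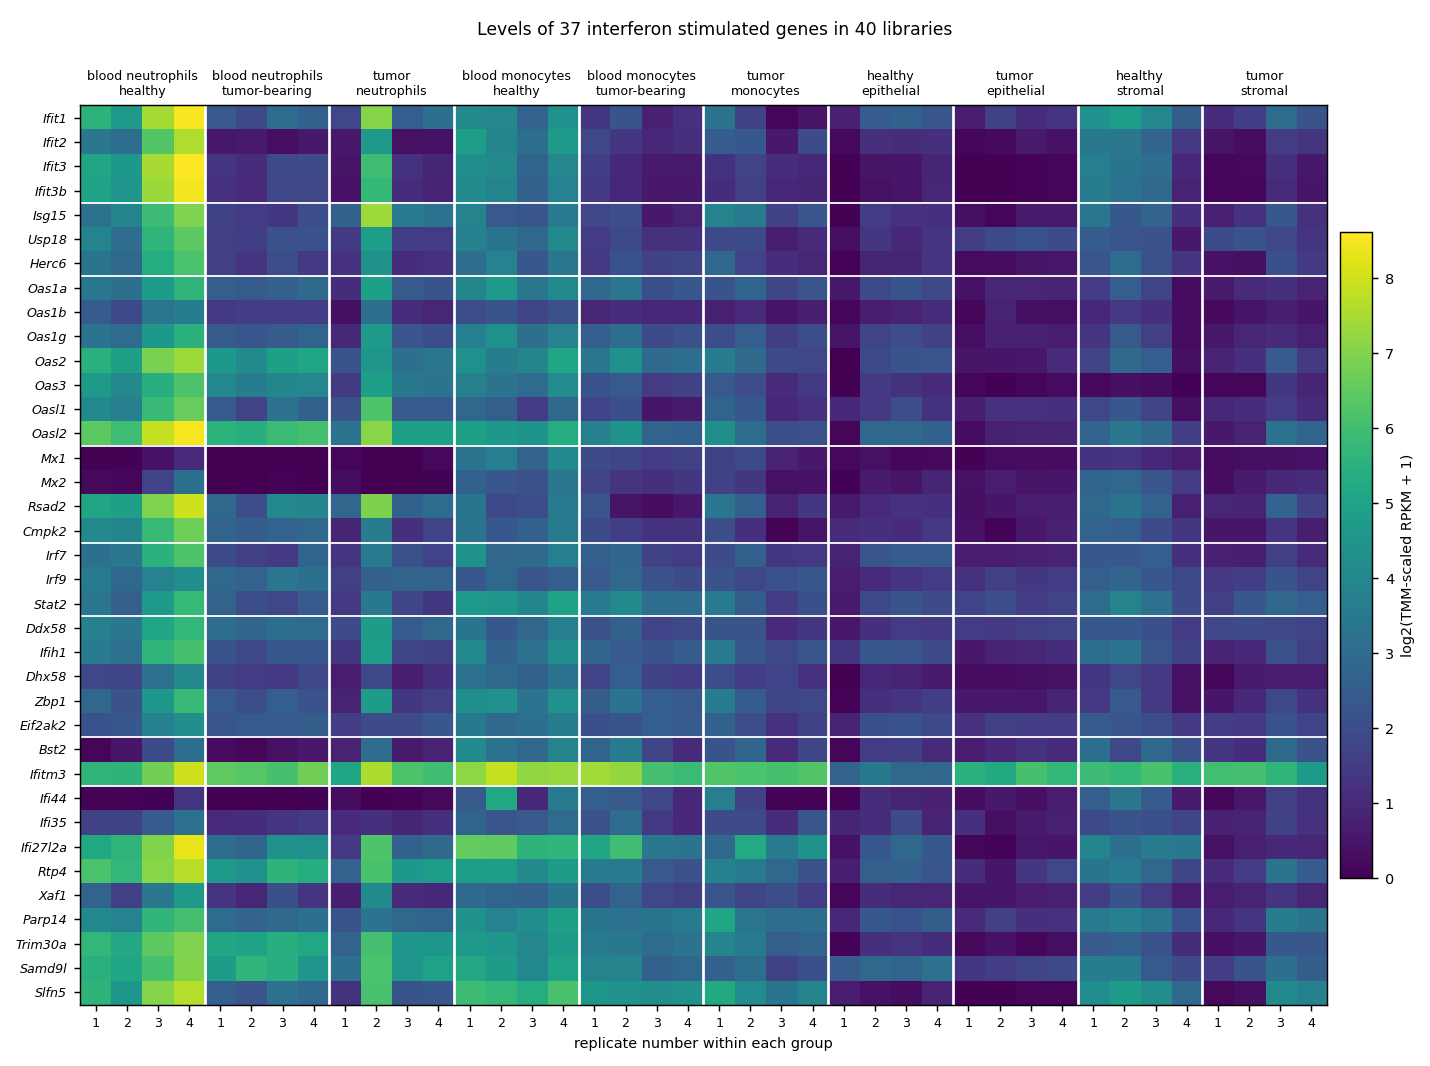
Level of each of the 37 genes (rows) in each of the 40 libraries (columns, grouped), as log2(TMM-scaled RPKM + 1). The members are high together in healthy blood monocytes, in healthy blood neutrophils, most of all replicates 3 and 4, and in 1 tumor neutrophil library, replicate 2. Mx1, Mx2 and Ifi44 are near 0 in most neutrophil libraries.

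Neutrophils in the blood of tumor-bearing mice held less of the interferon stimulated RNAs than those of healthy mice. Of the 36 members tested, 22 fell, at a Benjamini-Hochberg adjusted p below 0.05 and a log2 fold change beyond 1.5, and none rose, and all 36 had a negative log2 fold change. In the same comparison 2.22% of all 13360 genes tested fell and 1.79% rose. The members' median log2 fold change was −2.51, beside −0.01 over all genes. In bulk samples such as these, fewer cells that carry an RNA and less of it per cell cannot be told apart. Every test is edgeR's quasi-likelihood test on counts, errors are standard errors (SE), and values per library are RPKM, reads per kilobase of gene scaled to library size, in the order of replicates 1 to 4.

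The Ifit family, proteins that bind foreign RNA and block its translation, fell in all 4 members, and Ifit2 had the largest difference of the 36 members tested. Ifit3 stood at 25.4, 20.02, 116 and 270 in healthy and at 1.11, 0.866, 1.91 and 2.05 in tumor-bearing mice (log2 fold change −6.21, SE 0.95, adjusted p = 0.00583). Ifit1 stood at 35.2, 20.4, 114 and 255 against 3.20, 2.08, 4.99 and 3.71 (−4.96, SE 0.82, adjusted p = 0.00854). The groups did not overlap for either gene, and the lowest healthy library was several times the highest of tumor-bearing mice. Ifit2 fell from 7.38, 6.58, 51.8 and 132 to 0.359, 0.405, 0.175 and 0.353 (−7.34, SE 1.10, adjusted p = 0.00573).

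Isg15 is a small protein that is attached to others as ubiquitin is, Herc6 is the ligase that attaches it in mice, and Usp18 removes it and damps signaling at the interferon receptor. All 3 of this system fell, Herc6 with a log2 fold change of −3.87 (SE 0.72, adjusted p = 0.0133). Isg15 stood at 6.47, 11.9, 38.3 and 84.7 in healthy and at 1.68, 1.47, 1.14 and 2.22 in tumor-bearing mice (−4.48, SE 0.79, adjusted p = 0.0109). Usp18 stood at 10.7, 6.37, 32.1 and 59.4 against 1.59, 1.54, 2.36 and 2.46 (−3.81, SE 0.70, adjusted p = 0.0123). Neither gene's groups overlapped. Slfn5, a member of the Schlafen family, moved likewise, from 36.3, 19.1, 86.2 and 137 to 3.82, 2.97, 5.92 and 4.67 (−4.03, SE 0.63, adjusted p = 0.00659).

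Oligoadenylate synthetases sense double-stranded RNA and activate RNase L, and 4 of the 7 family members fell. Oas1a was at 7.21, 6.93, 16.8 and 34.02 in healthy and 3.83, 3.40, 3.58 and 4.81 in tumor-bearing mice (−2.08, SE 0.52, adjusted p = 0.0408). Oasl2 kept the highest level of the family, at 66.0, 51.9, 152 and 247 against 34.9, 31.5, 39.4 and 46.4, and missed the threshold (−1.79, SE 0.49, adjusted p = 0.0576). In RPKM the groups did not overlap for these genes either, but they lay much closer than those of the Ifit genes. On TMM-scaled RPKM Oasl2 did overlap, with a lowest healthy value of 60.6 and a highest value of 65.8 in tumor-bearing mice. Of the nucleotide-acting effectors, Rsad2, or viperin, which makes a chain-terminating nucleotide, fell from 25.6, 23.9, 80.1 and 176 to 4.72, 2.39, 10.5 and 9.95 (−3.47, SE 0.77, adjusted p = 0.0269). Mx1, a dynamin-like GTPase, was hardly transcribed in neutrophils, at 0.0354, 0.0229, 0.225 and 0.703 in healthy and at no more than 0.0221 in tumor-bearing mice, and was the 1 member too low to be tested. Its neighbour Mx2 fell (−6.44, SE 1.40, adjusted p = 0.0240) from 0.117, 0.1004, 1.52 and 5.54 to at most 0.0332.

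Of the RNA and DNA sensors, Ddx58 (RIG-I) and Ifih1 (MDA5) fell and Dhx58, Zbp1 and Eif2ak2 did not pass. Ifih1 stood at 8.199, 7.15, 31.7 and 46.4 in healthy and 2.81, 2.08, 2.87 and 2.93 in tumor-bearing mice (−3.17, SE 0.62, adjusted p = 0.0164). Zbp1, a sensor of Z-form nucleic acids, overlapped between the groups, at 4.95, 3.12, 15.0 and 38.05 against 3.31, 2.41, 3.43 and 2.46 (−2.44, SE 0.71, adjusted p = 0.0700). Among the transcription factors, Irf7, which amplifies interferon production, stood at 6.10, 8.26, 28.8 and 50.4 against 2.14, 1.62, 1.16 and 4.15 (−3.41, SE 0.73, adjusted p = 0.0235). Stat2 stood at 7.30, 4.36, 16.03 and 36.7 against 4.27, 2.47, 1.76 and 3.19 (−2.52, SE 0.63, adjusted p = 0.0408). Both fell. Irf9, the partner of Stat2 in the complex, had a log2 fold change of −0.70 (SE 0.30, adjusted p = 0.204).

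The 2 membrane restriction factors did not pass. Ifitm3, which blocks virus entry at endosomes, stood at 37.2, 41.3, 71.4 and 172 in healthy and at 65.6, 61.4, 47.1 and 75.3 in tumor-bearing mice (−0.40, SE 0.47, adjusted p = 0.681), with the tumor-bearing libraries inside the healthy range. Bst2, or tetherin, was low in all, at 0.0577, 0.376, 1.89 and 5.24 against 0.137, 0.0785, 0.221 and 0.361 (−3.25, SE 1.14, adjusted p = 0.123). Of the 9 other induced genes 4 fell, Ifi27l2a, Rtp4, Parp14 and Slfn5. Ifi27l2a, a small membrane protein, stood at 26.3, 41.5, 81.6 and 222 against 5.70, 4.62, 13.7 and 13.6 (−3.30, SE 0.73, adjusted p = 0.0255).

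The healthy neutrophil libraries differed in Xist, and the count of members that fell turned on them. Replicates 3 and 4, with Xist at 0.0164 and 0.0418 RPKM, were above replicates 1 and 2, with Xist at 3.66 and 4.02, for 37 of 37 members by a median of 2.13 (log2), whereas 33.97% of the 5676 other genes compared were higher. Erythroid markers were summed to 4.31 and 9.34 RPKM in replicates 3 and 4 and to 462 and 538 in replicates 1 and 2, and lymphocyte markers to 0.681 and 0.752 against 6.05 and 8.85. Their part in the difference was not tested. Against replicates 1 and 2 alone, 8 members fell, namely Ifit1, Ifit2, Ifit3, Ifit3b, Isg15, Usp18, Herc6 and Slfn5, and the members' median log2 fold change was −1.02. With Xist as a covariate 14 fell. Leaving out single libraries gave 9 without healthy replicate 3, 6 without replicate 1 or replicate 2 of the tumor-bearing mice and 12 without their replicate 4, and at most 29. The share of all genes called in the same fits is not set beside these counts. Whether members lost calls more than other genes was not tested. Neutrophil markers summed to 15514 to 20232 in blood neutrophils of tumor-bearing and to 3748 to 8559 in those of healthy mice, and their part was not tested. Among blood monocytes of tumor-bearing mice the order by Xist was the reverse. There replicates 1 and 2, with Xist at 15.3 and 18.7, were above replicates 3 and 4, at 0.0184 and 0.0272, for 35 of 37 members. The median difference was 0.91 (log2), and 65.3% of 7823 other genes were higher.

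**Figure D3:**
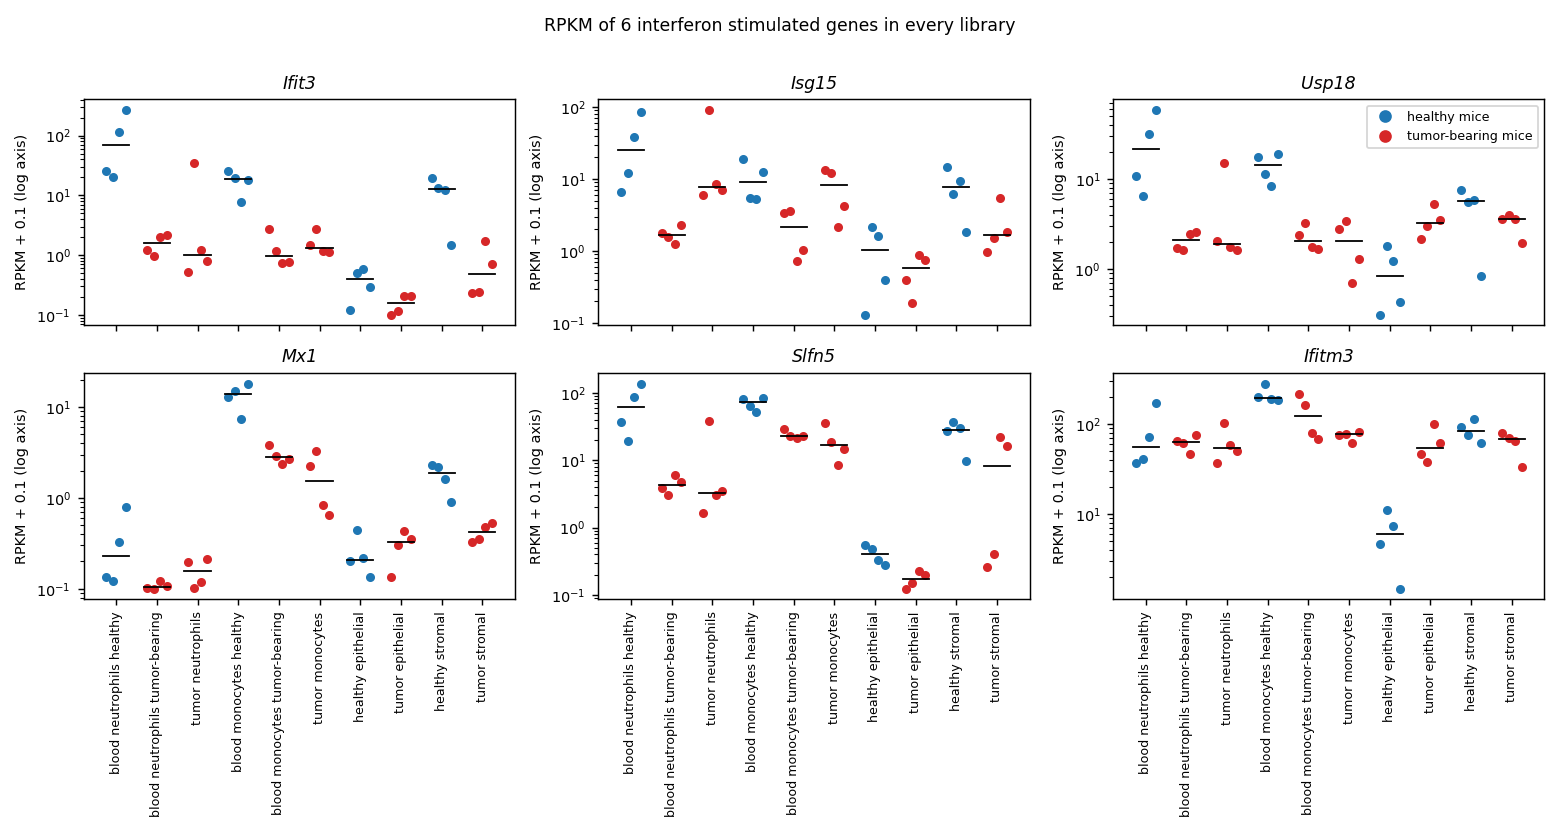
RPKM + 0.1 on a log axis of Ifit3, Isg15, Usp18, Mx1, Slfn5 and Ifitm3 in every library by group; points are libraries, blue from healthy and red from tumor-bearing mice, and the line is the group median. Ifit3, Isg15, Usp18 and Slfn5 do not overlap between blood neutrophils of healthy and tumor-bearing mice, Mx1 is below 1 RPKM in every neutrophil library, and Ifitm3 is higher in tumor than in healthy epithelium.

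Blood monocytes of tumor-bearing mice also held less of the members' RNA than healthy ones. All 37 members were tested, 6 fell and none rose, and all 37 had a negative log2 fold change, with a median of −1.48 beside 0.02 over all genes. Few genes were called in all, 0.118% of 15313 lower and 0.0914% higher, which is 18 and 14 genes, so that 6 of the 18 genes that fell were members. This comparison shares no library with that of neutrophils, but by their titles it shares animals, T17, T8 and T9 among tumor-bearing and WT13 to WT16 among healthy mice.

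Of the Ifit family Ifit2, Ifit3 and Ifit3b fell. Ifit3 stood at 25.6, 19.0, 7.73 and 17.6 in healthy and at 2.61, 1.08, 0.632 and 0.662 in tumor-bearing mice (−3.73, SE 0.52, adjusted p = 0.0226). Ifit2 stood at 37.8, 17.7, 10.1 and 28.3 against 3.30, 1.77, 1.12 and 1.52 (−3.52, SE 0.45, adjusted p = 0.0215). For both, every healthy library was above every library of tumor-bearing mice. Ifit1, at 22.04, 18.4, 7.23 and 23.0 against 2.02, 4.16, 0.875 and 1.57, did not overlap but missed the threshold (−2.93, SE 0.52, adjusted p = 0.0638).

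Usp18 fell from 17.5, 11.3, 8.24 and 18.8 to 2.29, 3.15, 1.64 and 1.58 (−2.59, SE 0.35, adjusted p = 0.0226). Mx1, well transcribed in monocytes, fell from 12.7, 15.1, 7.35 and 18.04 to 3.74, 2.79, 2.28 and 2.61 (−2.15, SE 0.30, adjusted p = 0.0226). Oas1b was the 6th (−1.66, SE 0.27, adjusted p = 0.0412). Slfn5 reached an adjusted p of 0.0226 at 82.3, 64.6, 51.6 and 82.7 against 28.8, 22.7, 21.3 and 23.1, but its log2 fold change of −1.46 (SE 0.19) was under the 1.5 required. Isg15 was at 18.7, 5.33, 5.22 and 12.6 against 3.22, 3.52, 0.616 and 0.921 (−2.23, SE 0.63, adjusted p = 0.225), and it did not pass, although the groups did not overlap.

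The other members named were lower on average and did not pass. Oas1a was at 20.3, 29.0, 12.3 and 17.9 in healthy and 8.02, 10.6, 3.80 and 4.79 in tumor-bearing mice. Oasl2 was at 40.2, 28.1, 26.9 and 46.7 against 15.7, 23.1, 6.88 and 6.397. Rsad2 was at 12.8, 3.38, 4.18 and 12.4 against 4.89, 0.429, 0.275 and 0.570. Rsad2 overlapped, since replicate 1 of the tumor-bearing mice was far above their other 3, and the 2 Oas genes did not. Irf7 was at 28.6, 7.59, 8.90 and 14.5 against 6.52, 6.84, 2.75 and 2.17. Stat2 was at 34.03, 26.9, 18.9 and 35.7 against 13.3, 17.8, 9.30 and 8.96. Ifih1 was at 21.2, 6.65, 11.2 and 21.9 against 7.57, 5.15, 4.48 and 5.60. Of these the sensor Ifih1 overlapped and the 2 transcription factors did not. Zbp1 was at 25.7, 23.997, 11.3 and 23.2 against 6.17, 9.86, 6.04 and 5.17. Bst2 was at 22.5, 10.3, 7.96 and 16.4 against 7.43, 12.4, 2.97 and 1.31. Ifi27l2a was at 128, 112, 62.5 and 59.7 against 41.5, 70.4, 11.9 and 10.8. Zbp1 kept its groups apart and Bst2 and Ifi27l2a did not. These separations are in RPKM, and on TMM-scaled RPKM Zbp1, Stat2 and Oas1a did overlap. Their lowest healthy values were then 8.63, 14.4 and 9.39, against highest values of 8.73, 15.8 and 9.42 in tumor-bearing mice. Ifitm3, the member with the highest level in monocytes, was at 199, 283, 189 and 186 against 218, 165, 80.6 and 68.0 (−0.61, SE 0.34, adjusted p = 0.5999), with overlapping groups.

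The count of calls in monocytes depended on single libraries. It was 0 without healthy replicate 1 or replicate 3 or 4 of the tumor-bearing mice. The count was 3 without healthy replicate 2 or replicate 1 or 2 of the tumor-bearing mice and 10 without healthy replicate 3. In every one of these fits the members' median lay between −1.80 and −1.30.

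Healthy neutrophils and monocytes differed in which of the genes they carried. Of the 37 members 15 were higher in neutrophils and 2 higher in monocytes, with a median log2 fold change of 1.33 in favour of neutrophils beside −0.07 over all genes. Over all 15033 genes, 16.7% were higher in neutrophils and 20.4% were lower. Mx1 (−4.90, SE 0.99, adjusted p = 0.00255) and Ifi44 (−4.91, SE 1.48, adjusted p = 0.0195) were the 2 that were lower. Rsad2 was furthest toward neutrophils (4.08, SE 0.80, adjusted p = 0.00218), followed by Ifit3b, Ifit3 (3.50, SE 0.85, adjusted p = 0.00682) and Ifit1 (3.44, SE 0.80, adjusted p = 0.00557). These libraries are the healthy ones of the 2 preceding comparisons.

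This balance also turned on the healthy neutrophil libraries with low Xist. With neutrophil replicates 1 and 2 alone against monocytes, 2 members were higher in neutrophils, Rsad2 (2.27, SE 0.53, adjusted p = 0.0156) and Oasl1, and 8 were lower, Mx1 among them (−8.18, SE 0.64, adjusted p = 0.000197). Usp18 lost its difference, from 1.82 (SE 0.67, adjusted p = 0.0447) to −0.03. In both settings Mx1 was lower and Rsad2 higher in neutrophils. The monocyte pool from animals WT15 and WT16, which are also named for neutrophil replicates 3 and 4, had 35 of 37 members above the pool from WT13 and WT14, named for replicates 1 and 2, by a median of 0.86, and 35.8% of 7694 other genes were higher there. The WT13 and WT14 pool was the lowest healthy monocyte library for 26 members. WT10, named for no healthy neutrophil library, was also above that pool, for 37 of 37 members by a median of 0.85. There 63.5% of 8101 other genes were higher.

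Inside tumors, 1 of the 4 neutrophil libraries, replicate 2, held most members far above the others. Its title names animal T3, which is also named for tumor monocyte replicate 2. Of 35 members tested against blood neutrophils of the same kind of mouse, 1 rose, Isg15, and none fell, while 11.9% of 13674 genes rose and 4.41% fell. The median log2 fold change was 0.97, beside 0.11 over all genes, and it was −0.71 without tumor replicate 2. Mx1 and Mx2 were too low to be tested.

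Isg15 stood at 5.81, 91.7, 8.54 and 6.996 in tumor neutrophils and at 1.68, 1.47, 1.14 and 2.22 in blood (4.63, SE 1.12, adjusted p = 0.0170). Every tumor library was above every blood library. Replicate 2 was more than 10 times each of the others, and without it the log2 fold change was 1.96 (SE 0.41, adjusted p = 0.00553). The adjusted p was 0.0501, 0.0545 and 0.0563 without blood replicate 1, 2 or 3, and 0.111 with Xist as a covariate, so the call was lost in those fits. Without the 2 tumor libraries highest in epithelial markers, replicates 1 and 2, Isg15 kept its call (2.18, SE 0.37, adjusted p = 0.00413), Cmpk2 fell and the members' median was −0.42.

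Replicate 2 also stood far above the other tumor neutrophils for most other members. Ifit1 was at 2.87, 73.7, 3.99 and 6.63, Ifit3 at 0.420, 33.96, 1.11 and 0.682 and Slfn5 at 1.53, 38.6, 2.95 and 3.42. Rsad2 was at 6.84, 67.3, 4.37 and 5.91, Usp18 at 1.97, 15.2, 1.64 and 1.503 and Oas1a at 1.33, 15.7, 3.52 and 3.00. In the other 3 libraries these 6 genes lay within or below the range of blood neutrophils of tumor-bearing mice, except Ifit1 in replicate 4. Ifih1 was at 1.80, 15.5, 1.99 and 1.80, Zbp1 at 0.848, 14.2, 1.31 and 1.70 and Stat2 at 1.95, 5.64, 1.97 and 1.32. Ifi27l2a was at 1.89, 41.6, 4.32 and 5.60, Bst2 at 0.844, 4.11, 0.440 and 0.648 and Irf7 at 1.67, 6.19, 2.76 and 1.90. Bst2 was above every blood library in all 4 (3.28, SE 1.07, adjusted p = 0.0575), whereas the others passed the blood range only through replicate 2. Oasl2, at 9.60, 76.1, 23.1 and 23.4, and Ifitm3, at 36.7, 104, 59.0 and 50.1, had 3 libraries within or below the blood range and 1 above it. Mx1 stayed near 0, at 0.0989, 0.00145, 0.0183 and 0.115. With replicate 2 left out, 4 members passed, Isg15 and Ifi44 higher and Oas2 and Cmpk2 lower. Leaving out replicate 3 or replicate 4 gave 2, with Ifit2 joining Isg15.

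No member passed between tumor and blood monocytes, of 37 tested, while 7.76% of 15280 genes rose and 3.89% fell. The median log2 fold change was −0.25, beside −0.03 over all genes, and it was 0.12 without blood replicate 2. DESeq2 called 1, Isg15. Isg15 came closest, at 13.1, 12.04, 2.08 and 4.08 in tumor and 3.22, 3.52, 0.616 and 0.921 in blood (2.17, SE 0.71, adjusted p = 0.0617), with overlapping groups. Leaving out blood replicate 1, tumor replicate 1 or tumor replicate 3 gave 1 call each, Rsad2 higher, Stat2 lower and Isg15 higher.

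The 4 tumor monocyte libraries spread widely. Ifit1 was at 8.77, 2.41, 0.0986 and 0.397, Rsad2 at 9.19, 5.86, 0.731 and 1.76 and Usp18 at 2.68, 3.32, 0.593 and 1.18. Mx1 was at 2.14, 3.15, 0.742 and 0.554, Oasl2 at 18.3, 8.15, 2.93 and 3.65 and Ifih1 at 10.3, 4.46, 2.40 and 4.22. Stat2 was at 10.7, 5.30, 1.82 and 3.54, Zbp1 at 11.1, 5.18, 2.28 and 2.80 and Slfn5 at 35.9, 18.9, 8.37 and 14.7. In each of these 9 genes replicates 1 and 2 were above replicates 3 and 4. Ifit3, at 1.35, 2.63, 1.06 and 1.04, Oas1a, at 3.65, 6.49, 2.29 and 4.13, and Irf7, at 2.90, 5.94, 1.43 and 1.80, spread less. Bst2 was at 3.60, 6.69, 0.973 and 2.61 and Ifi27l2a at 6.51, 41.5, 9.84 and 21.9, with the highest value in replicate 2. Ifitm3 was even across the 4, at 75.1, 78.7, 62.1 and 81.1.

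An interaction term over 16 libraries compared the tumor-minus-blood difference of neutrophils with that of monocytes. No member passed of 37 tested, with the smallest adjusted p, 0.110, for Bst2 (3.74, SE 1.31), which DESeq2 called. Over all 17465 genes, 2.73% were called higher and 1.23% lower. The members' median was 1.10, beside 0.10 over all genes, and it was −0.78 without tumor neutrophil replicate 2.

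**Figure D4:**
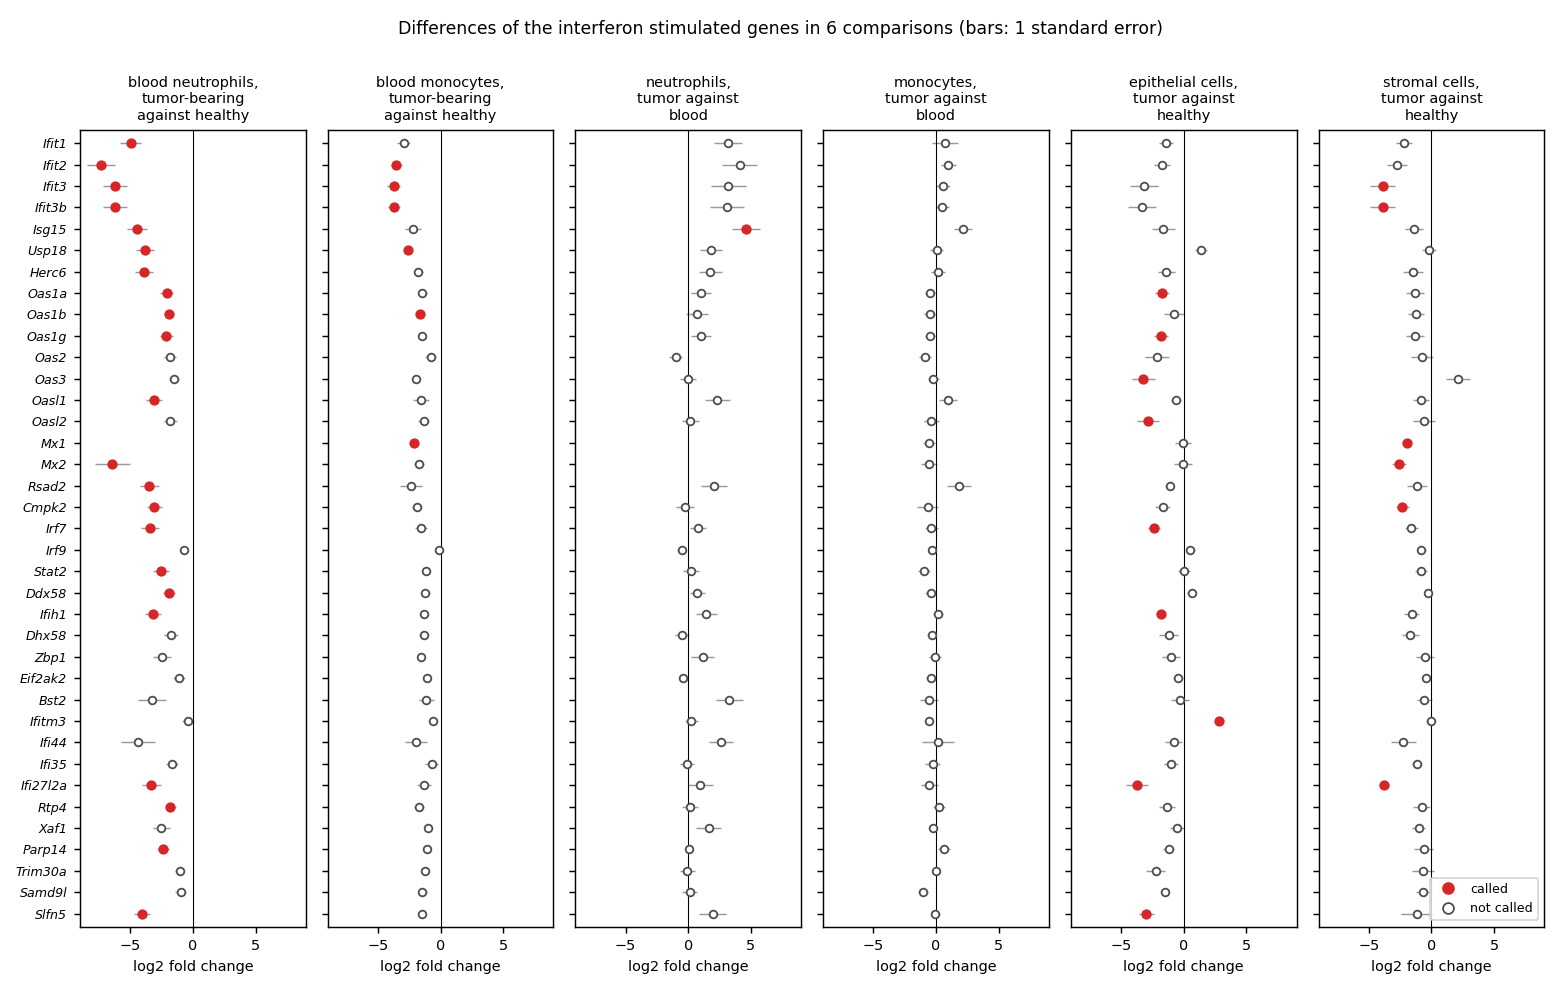
Log2 fold change of each member in 6 comparisons of tumor with blood and of tumor-bearing with healthy mice; points in red passed (adjusted p below 0.05 and beyond 1.5), bars are 1 SE. In blood, 22 members passed in neutrophils and 6 in monocytes, all lower in tumor-bearing mice, while Isg15 alone passed between tumor and blood neutrophils and none between tumor and blood monocytes.

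In tumor epithelium the members were mostly lower than in healthy epithelium, with Ifitm3 in the opposite direction. Of 37 tested 8 fell and 1 rose, and 32 had a negative log2 fold change, with a median of −1.36 beside −0.01 over all genes. Of all 16085 genes 7.88% fell and 7.52% rose. Because the RPKM of most genes were lowest in healthy replicate 4, TMM-scaled RPKM are given for epithelium. Summed endothelial markers were 4.31 to 4.66 RPKM in tumor and 0.0463 to 0.366 in healthy epithelium, and erythroid markers were 25.4 to 73.2 against 0.500 to 18.6. Their part in the differences was not tested.

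Ifitm3 was at 5.70, 10.1, 6.42 and 6.11 in healthy and at 44.4, 36.98, 67.8 and 51.6 in tumor epithelium (2.84, SE 0.25, adjusted p = 4.71e-05), without overlap. It was called in each alternative fit tried, with log2 fold changes between 2.69 and 3.29. The sensor Ifih1 fell, from 1.56, 4.23, 3.84 and 2.90 to 0.503, 0.816, 0.910 and 1.21 (−1.85, SE 0.33, adjusted p = 0.00273). Irf7 fell, from 0.788, 3.78, 4.68 and 4.67 to 0.597, 0.592, 0.746 and 0.798 (−2.34, SE 0.48, adjusted p = 0.00542), and its groups touched, with healthy replicate 1 just under the highest tumor library. Slfn5, already low in epithelium, fell from 0.568, 0.348, 0.209 and 0.773 to 0.0232, 0.0468, 0.0846 and 0.0815 (−2.97, SE 0.58, adjusted p = 0.00417).

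Of the 7 Oas genes 4 fell, Oas1a, Oas1g, Oas3 and Oasl2. Oasl2 was at 0.107, 6.47, 6.59 and 5.44 in healthy and 0.213, 0.693, 0.797 and 0.866 in tumor epithelium (−2.84, SE 0.88, adjusted p = 0.0422). Oas3 was at 0.0419, 1.76, 1.39 and 1.05 against 0.121, 0.0185, 0.123 and 0.189 (−3.22, SE 0.92, adjusted p = 0.0289). Oas1a was at 0.499, 2.80, 3.77 and 2.62 against 0.320, 0.886, 0.883 and 0.760 (−1.75, SE 0.56, adjusted p = 0.0467). In all 3, healthy replicate 1 lay in or below the tumor range and the other 3 above it. Ifi27l2a fell likewise, from 0.351, 4.10, 6.43 and 4.14 to 0.121, 0.0675, 0.475 and 0.432 (−3.73, SE 0.89, adjusted p = 0.0123).

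The remaining members named did not pass. Ifit1 was at 0.712, 4.70, 5.43 and 3.90 in healthy and 0.615, 2.21, 1.18 and 1.46 in tumor epithelium, and Ifit3 was at 0.0252, 0.373, 0.436 and 0.854 against 0, 0.0135, 0.0710 and 0.0912. Isg15 was at 0.0373, 1.90, 1.36 and 1.32 against 0.278, 0.0846, 0.529 and 0.544. Healthy replicate 1 was again the low library of its group in all 3. Usp18 was at 0.260, 1.58, 1.00 and 1.46 against 1.95, 2.82, 3.47 and 2.87, which with Ifitm3 was the other member with every tumor library above every healthy one (1.39, SE 0.48, adjusted p = 0.0615). Mx1 was at 0.126, 0.315, 0.104 and 0.147 against 0.0342, 0.196, 0.223 and 0.211, and Rsad2 at 0.534, 1.03, 1.35 and 1.27 against 0.264, 0.442, 0.574 and 0.635. Stat2 was at 0.525, 2.84, 3.67 and 2.91 against 2.31, 3.21, 1.98 and 2.41. Zbp1 was at 0.0652, 1.31, 1.43 and 2.00 against 0.506, 0.519, 0.464 and 0.857, and Bst2 at 0.0868, 1.85, 2.01 and 1.06 against 0.622, 0.944, 1.35 and 1.11. All 5 of these overlapped between the groups.

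The count of calls rested in part on 1 healthy library. Without healthy epithelial replicate 1 it was 20, and it was 5 without tumor replicate 1 or 2. Without the 2 healthy libraries highest in mitochondrial counts, 14 members fell and 1 rose.

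Tumor stromal cells were lower than healthy ones for 36 of 37 members, of which 6 fell and none rose, with a median log2 fold change of −1.16 beside 0.03 over all genes. Of 19081 genes 5.01% fell and 3.39% rose. Ifit3 fell from 19.4, 13.3, 11.9 and 1.37 to 0.131, 0.139, 1.62 and 0.621 (−3.90, SE 0.98, adjusted p = 0.0404), with tumor replicate 3 just above healthy replicate 4. Ifi27l2a fell from 21.8, 11.2, 17.8 and 14.2 to 0.400, 0.749, 1.34 and 1.13 (−3.78, SE 0.42, adjusted p = 0.00433), far apart in every library. Mx1 fell from 2.18, 2.08, 1.52 and 0.811 to 0.224, 0.257, 0.382 and 0.432 (−1.99, SE 0.39, adjusted p = 0.0172), and Mx2, Cmpk2 and Ifit3b were the other members that fell.

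The count depended on which tumor libraries were kept, and the part of their marker differences was not tested. Without tumor replicates 1 and 2, those highest in epithelial markers, Ifi27l2a was the 1 member called (−3.40, SE 0.40, adjusted p = 0.00552). Without replicates 3 and 4, those highest in neutrophil markers, 18 fell. That fit kept tumor replicates 1 and 2, whose stromal label was not borne out by markers. Its count is not set beside a share of all genes. Slfn5 shows the split most plainly, at 0.160 and 0.304 in tumor replicates 1 and 2 and at 22.02 and 16.1 in replicates 3 and 4, beside 27.1, 36.8, 29.5 and 9.67 in healthy stromal cells. Leaving out single libraries gave 1 without healthy replicate 1 or 2, 3 without healthy replicate 3 or tumor replicate 1 or 4, 2 without tumor replicate 2 and 10 without healthy replicate 4.

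The other members had wide healthy groups with replicate 4 mostly at the bottom. Ifit1 was at 31.2, 38.6, 24.1 and 6.99 in healthy and 1.45, 2.19, 9.54 and 4.73 in tumor stromal cells, Isg15 at 14.8, 6.03, 9.19 and 1.75 against 0.869, 1.43, 5.43 and 1.72, and Usp18 at 7.39, 5.49, 5.80 and 0.743 against 3.52, 3.93, 3.50 and 1.84. Oas1a was at 2.83, 7.13, 3.90 and 0.315 against 0.677, 1.18, 1.63 and 1.01, Oasl2 at 8.98, 13.9, 11.2 and 2.85 against 0.627, 0.849, 11.4 and 7.62, and Rsad2 at 9.95, 12.8, 8.85 and 1.00 against 1.11, 0.865, 7.35 and 2.78. Healthy replicate 4 lay inside or below the tumor range for all 6. Irf7 was at 6.404, 5.79, 7.98 and 1.83 against 0.892, 0.696, 2.82 and 1.34, Stat2 at 11.6, 19.2, 13.7 and 4.21 against 2.65, 4.37, 8.15 and 6.19, and Ifih1 at 12.1, 12.5, 6.15 and 3.26 against 1.01, 0.996, 4.55 and 2.67. Zbp1 was at 2.71, 6.12, 2.70 and 0.444 against 0.555, 1.06, 3.50 and 1.74, Bst2 at 12.4, 3.86, 10.5 and 4.90 against 2.00, 1.28, 9.25 and 4.27, and Ifitm3 at 92.5, 75.3, 114 and 62.0 against 79.5, 70.3, 65.4 and 33.2. None of these 6 passed, and their groups overlapped.

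In healthy colon, epithelium held less than stroma of 15 members and more of none, with a median log2 fold change of −1.57 beside −0.14 over all genes. Of 18468 genes 19.4% were lower in epithelium and 11.5% higher. Slfn5 (−5.25, SE 0.59, adjusted p = 0.000206), Ifit3 (−4.28, SE 0.97, adjusted p = 0.00693) and Ifit3b led, and Ifitm3 differed by −3.06 (SE 0.28, adjusted p = 6.73e-05). All 4 Ifit genes, all 4 dynamin-like and nucleotide-acting effectors and both membrane factors were lower, whereas none of the 7 Oas genes passed. Oas3 had a log2 fold change of 2.61 (SE 0.95, adjusted p = 0.0561), and it passed when mitochondrial genes were left out. Without healthy stromal replicate 1 or 2 the count was 9 or 8.

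The interferons themselves were hardly transcribed. Of 20 interferon genes listed, 18 did not exceed 20 counts in any library, and Ifnk and Ifng were the other two. Ifnk, the interferon kappa gene, reached 3.20 RPKM in healthy blood monocytes. The receptor genes were present in every blood library, Ifnar1 at 4.00 to 6.94 in healthy neutrophils and 3.61 to 4.56 in those of tumor-bearing mice (−0.26, SE 0.19, adjusted p = 0.474). Ifnar2 differed by 0.30 (SE 0.19, adjusted p = 0.413) there. Neither receptor gene passed in monocytes, at −0.33 (SE 0.29, adjusted p = 0.760) and −0.20 (SE 0.17, adjusted p = 0.745). Irf5, another interferon regulatory factor, fell in blood neutrophils of tumor-bearing mice, from 2.47, 2.44, 3.13 and 4.47 to 0.726, 0.669, 1.16 and 1.19 (−1.72, SE 0.35, adjusted p = 0.0203).

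Genes known best as targets of interferon gamma, the type II interferon, were also listed. In blood neutrophils 8 of 13 tested fell in tumor-bearing mice, beside 2.22% of all genes, Cxcl10, Nlrc5, Gbp3, Gbp5, Igtp, Psmb8, Tap1 and Cd274, and none of 14 passed in monocytes. From blood to tumor, where 11.9% of all genes rose in neutrophils and 7.76% in monocytes, 4 of 13 rose in neutrophils, Cxcl9, Cxcl10, Gbp5 and Cd274, and 5 of 14 in monocytes, Cxcl9, Cxcl10, Gbp5, Iigp1 and Cd274. Cxcl10, a chemokine that draws T cells, stood at 0.159, 0.0897, 0.184 and 0.455 in blood and 8.58, 7.55, 5.83 and 5.43 in tumor neutrophils (5.02, SE 0.63, adjusted p = 0.000800). Cd274, the gene of the checkpoint ligand PD-L1, stood at 2.21, 1.17, 3.79 and 4.46 against 50.3, 99.6, 47.8 and 42.1 (4.56, SE 0.67, adjusted p = 0.00153). These 2 genes were high in all 4 tumor neutrophil libraries, unlike the Ifit genes, which were high in replicate 2. In tumor monocytes Cxcl10 reached 382, 24.4, 21.1 and 23.3 from 3.61, 0.942, 0.481 and 0.557 in blood (6.67, SE 1.28, adjusted p = 0.00522).

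Among sensing genes upstream of interferon, Tlr9, Tbk1 and Ikbke rose in tumor against blood neutrophils, of 13 tested and beside 11.9% of all genes, Tbk1 by 2.22 (SE 0.37, adjusted p = 0.00253). In epithelium 13 were tested, with 7.52% of all genes higher and 7.88% lower. Tmem173, the gene of STING, rose in tumors (3.74, SE 0.41, adjusted p = 0.000151), and Tlr3 and Myd88 fell. A list of 9 genes held brakes on the pathway, beside Isg20, which is not a brake, and Trex1, which had no counts in any library. Of these, Socs3 rose in tumor epithelium (3.19, SE 0.54, adjusted p = 0.00193), of 7 tested. From blood to tumor, Ptpn2, a phosphatase, rose in neutrophils (1.57, SE 0.44, adjusted p = 0.0318), of 8 tested. This 1 call is near the 11.9% of all genes that rose there. In monocytes Ptpn2 (1.95, SE 0.26, adjusted p = 0.000618) and Socs3 (2.34, SE 0.31, adjusted p = 0.000634) rose, of 7 tested and beside 7.76% of all genes. In stromal cells Ptpn6 was higher in tumors (2.59, SE 0.61, adjusted p = 0.0328), of 8 tested and beside 3.39% of all genes. It was low, at 0.348, 0.0904, 0.418 and 0.158 in healthy and 0.837, 0.401, 1.37 and 2.17 in tumor stromal cells. In blood neutrophils of tumor-bearing mice it was at 18.1 to 22.5, and in tumor neutrophils at 2.51, 9.15, 11.8 and 9.90. Tumor stromal replicates 3 and 4 held neutrophil markers, and their part in this difference was not tested. None of this list passed between tumor-bearing and healthy mice in blood neutrophils or blood monocytes, of 8 and 7 tested.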

How the data were processed

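RNA was measured by sequencing in 40 sorted mouse cell libraries. Per the labels and the study's methods, RNA was amplified (NuGEN Ovation V2), sequenced and aligned to mm10, with Bowtie2, bcl2fastq and limma named in the submitters' processing notes. Whether counting used strand is not given in the sources used here. The authors deposited estimated counts per gene, which were rounded here, and RPKM values. Of 45706 genes, filterByExpr kept those tested. Each comparison was fitted on its own libraries with edgeR 4.0.16 (R 4.3.3), TMM scaling and the robust quasi-likelihood test. A gene was called at a Benjamini-Hochberg adjusted p below 0.05 and a log2 fold change beyond 1.5. Alternatives used DESeq2 1.42.0 and limma 3.58.1. Named genes were 16 members shown in every library and the 3 most changed called members per comparison and direction. The members, lists and rules were chosen with earlier results of these data known. Alternatives on Xist, marker levels and mitochondrial share were chosen after seeing the data. Depth was 10717873 to 38002939 counts per library.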

Additional observations from a re-analysis of the deposited data

Results flagged for a closer look

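Of 160 sets of 4 values tested, 15 held a library far from the other 3 by Dixon's test, where chance flags about 1 in 20. Of the 15, 12 were in tumor neutrophil replicate 2, which stood above the other tumor neutrophils for Ifit1 (73.7 RPKM), Ifit3 (33.96), Isg15 (91.7), Usp18 (15.2), Oas1a (15.7), Rsad2 (67.3), Stat2 (5.64), Ifih1 (15.5), Zbp1 (14.2), Bst2 (4.11), Ifi27l2a (41.6) and Slfn5 (38.6). The other 3 were a high Rsad2 of 4.89 RPKM in blood monocytes of tumor-bearing mice replicate 1, a low Ifih1 of 2.08 in blood neutrophils of tumor-bearing mice replicate 2 and a high Ifitm3 of 283 in healthy blood monocytes replicate 2.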

How the results depend on the processing

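Counts of called members moved by over 1.5 times as follows. Between tumor and blood neutrophils the count of 1 was 0 with limma-voom, 7 with all 40 libraries in the fit, 0 with Xist as a covariate and 2 without the 2 libraries highest in epithelial markers. Between tumor and blood monocytes the count of 0 was 1 with DESeq2 and 1 with Xist. In blood neutrophils of tumor-bearing against healthy mice the 22 became 12 with limma-voom, 14 with Xist and 8 without the 2 low-Xist libraries. In blood monocytes the 6 became 14 with DESeq2 and 0 with all 40 libraries. In epithelium the 9 became 14 with DESeq2, 1 with limma on log2 RPKM and 15 without the 2 libraries highest in mitochondrial counts. In stromal cells the 6 became 1 without the libraries high in epithelial markers and 18 without those high in neutrophil markers. Between healthy neutrophils and monocytes the 17 became 11 with limma on log2 RPKM and 10 without the low-Xist libraries, where Usp18 lost its difference, at −0.034. The interaction count of 0 was 1 with DESeq2. The causes were not tested, and the share of all genes called in the same fits is not set beside these counts.

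Same-numbered libraries did not deviate together in every pair, and the numbers did not follow the animals throughout. A block on them therefore does not test pairing by animal. By their titles, T5 was shared by tumor and blood neutrophils, T17 by tumor and blood monocytes and Wta by healthy epithelial and stromal cells. WT13 to WT16 were shared by healthy neutrophils and monocytes, and T3, T4, T5, T8, T9 and T17 recurred in the interaction. All libraries were fitted as independent. With replicate number as a block the counts were 0 (tumor against blood neutrophils), 2 (tumor against blood monocytes), 17 (blood neutrophils), 3 (blood monocytes), 10 (epithelium), 1 (stromal cells), 13 (healthy neutrophils against monocytes), 5 (healthy epithelial against stromal cells) and 0 (interaction). Leaving out 1 library at a time, they ranged from 0 to 4, 0 to 1, 6 to 29, 0 to 10, 5 to 20, 1 to 10, 12 to 22, 8 to 19 and 0 to 0 in the same order. Of 892 values of single called members under the alternatives, 685 kept the call, 206 lost it and 1, that of Usp18, changed sign.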
